A study of Mus musculus with 12 samples.

Results

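The tumour necrosis factor (TNF) superfamily genes measured here were 29 of the 19938 genes of the array, 20 receptors and 9 ligands. They were chosen by symbol: every gene named Tnfrsf or Tnfsf followed by a digit, with a probe set that carries that symbol alone. The rule uses no measured value, but it was set with earlier results of these data known. Each of the 29 had 1 such probe set, and a probe set shared by Tnfsf12, Tnfsf13 and their joint transcript was left out because it carries several symbols. The arrays, 12 in all and 3 per group, are labelled as RNA of mast cells grown from bone marrow: ACKR2-/- cells after 10 weeks of culture, wild type cells after 10 weeks, ACKR2-/- cells after 2 weeks and wild type cells after 2 weeks. ACKR2, also called D6, is a scavenging chemokine receptor: it takes up and degrades inflammatory CC chemokines and does not signal as other chemokine receptors do. The labels give the strain C57BL/6 for wild type and describe donors in all groups as females of 4 to 6 weeks, whose marrow was cultured in medium with interleukin 3 (10 ng/ml) and stem cell factor (12.5 ng/ml). They say that cells of some 2-week cultures were purified on a column for CD117, the product of Kit, without naming the arrays, and they do not describe the ACKR2-/- allele.

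Most TNF superfamily ligands are trimeric proteins of the cell surface, some of which are cut off by proteases, and their receptors carry cysteine-rich repeats outside the cell. Inside the cell some receptors have a death domain, which can lead through FADD and caspase-8 to cell death, and others bind TRAF adaptors that lead to NF-kappaB. Mast cells are known for storing TNF, the founding ligand, and several other ligands of the family stimulate T and B lymphocytes through receptors found mainly on those cells. All levels below are log2 signals, so equal differences are equal ratios, and levels of different genes are not set against each other because each probe set has its own brightness.

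Of the 12 arrays, 4 were low in the transcripts of the labelled cell type: the 3 ACKR2-/- 2-week arrays and wild type 2-week array 3. The mean of 11 mast cell markers was 6.84 to 7.11 on these 4 arrays and 12.58 to 12.83 on the other 8, and Fcer1a, the alpha chain of the IgE receptor, read 4.83 to 5.47 on the 4 and 13.74 to 14.14 on the 8. Means of 9 B cell markers were 9.96, 9.95 and 12.75 on the ACKR2-/- 2-week arrays and 9.81 on wild type 2-week array 3, with 6.58 to 6.95 on the other 8. Means of 11 T and NK cell markers were 11.33, 11.33 and 8.53 on the ACKR2-/- 2-week arrays and 11.42 on wild type 2-week array 3, with at most 7.17 elsewhere. Xist, the RNA of the inactive X chromosome, read 5.77 to 6.23 on the same 4 arrays and 13.00 to 13.37 on the other 8, although the labels give female mice throughout. The Y-linked gene Kdm5d read 10.06 to 10.51 on the 4 arrays and 6.04 to 6.42 on the 8. Ackr2 itself read 8.34, 8.16 and 8.25 on the ACKR2-/- 10-week arrays, against 7.88, 8.26 and 8.35 on the wild type 10-week arrays, and 8.39, 7.79 and 9.43 on the ACKR2-/- 2-week arrays, against 8.19, 8.29 and 8.38 on the wild type 2-week arrays. Whether its probe set lies in the deleted part is not given in the sources used here, so it checks no label. The 4 arrays thus go against their labels in cell type and sex, and whether samples were exchanged or mislabelled was not tested, so their genotype and time rest on the labels alone. Across all genes, wild type 2-week array 3 correlated at 0.996 and 0.997 with ACKR2-/- 2-week arrays 1 and 2, which correlated at 0.998 with each other. ACKR2-/- 2-week array 3 correlated with arrays 1 and 2 of its group at 0.965 and 0.966. Groups are named by their labels, and every comparison of a group that holds any of the 4 arrays sets unlike cell content and unlike sex transcripts side by side.

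The start regions of 5 genes that the results turn on are shown first. Tnfsf10, Tnfrsf1a, Tnfrsf1b and Tnfrsf23 were among the 6 members with an unadjusted p under 0.05 between the genotypes at 10 weeks, and Tnfrsf14 is the receptor of a ligand and receptor pair in which both passed the test between the times. Each is the 250 bases before and 50 bases after the RefSeq gene start in GRCm38.p6, 5′ to 3′ on the gene's strand: chr3:27316827-27317126 (+) for Tnfsf10, chr6:125349473-125349772 (+) for Tnfrsf1a, chr4:145246821-145247120 (-) for Tnfrsf1b, chr7:143685826-143686125 (-) for Tnfrsf23 and chr4:154928028-154928327 (-) for Tnfrsf14. Capitals mark matches to the core of the interferon-stimulated response element, which is GAAA, any 2 bases and GAAA again, read here on the other strand.
Tnfsf10: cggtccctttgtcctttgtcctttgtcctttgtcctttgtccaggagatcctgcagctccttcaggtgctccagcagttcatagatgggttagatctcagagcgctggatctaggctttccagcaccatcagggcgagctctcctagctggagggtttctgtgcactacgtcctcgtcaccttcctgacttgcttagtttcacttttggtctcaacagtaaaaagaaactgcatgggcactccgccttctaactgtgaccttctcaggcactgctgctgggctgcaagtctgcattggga
Tnfrsf1a: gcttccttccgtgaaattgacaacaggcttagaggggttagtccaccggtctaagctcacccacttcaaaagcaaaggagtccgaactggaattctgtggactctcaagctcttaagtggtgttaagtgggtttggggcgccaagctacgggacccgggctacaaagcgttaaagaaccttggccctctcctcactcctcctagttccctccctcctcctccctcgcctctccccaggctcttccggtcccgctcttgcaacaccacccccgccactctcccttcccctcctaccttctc
Tnfrsf1b: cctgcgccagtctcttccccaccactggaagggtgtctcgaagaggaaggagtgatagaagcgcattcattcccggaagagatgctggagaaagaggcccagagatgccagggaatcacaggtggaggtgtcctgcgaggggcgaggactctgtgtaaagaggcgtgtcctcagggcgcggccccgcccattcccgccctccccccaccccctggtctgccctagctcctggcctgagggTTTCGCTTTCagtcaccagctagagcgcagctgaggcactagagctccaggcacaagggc
Tnfrsf23: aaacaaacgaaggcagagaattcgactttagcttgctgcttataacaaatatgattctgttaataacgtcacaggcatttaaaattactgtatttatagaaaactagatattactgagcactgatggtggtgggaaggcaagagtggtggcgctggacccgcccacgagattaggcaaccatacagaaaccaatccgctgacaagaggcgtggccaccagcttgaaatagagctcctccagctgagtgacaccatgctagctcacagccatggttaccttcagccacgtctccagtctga
Tnfrsf14: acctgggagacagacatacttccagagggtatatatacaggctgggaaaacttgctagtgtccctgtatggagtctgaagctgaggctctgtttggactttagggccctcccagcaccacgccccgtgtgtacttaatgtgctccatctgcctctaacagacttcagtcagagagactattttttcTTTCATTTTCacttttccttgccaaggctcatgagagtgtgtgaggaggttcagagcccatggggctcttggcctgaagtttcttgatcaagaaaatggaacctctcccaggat
RefSeq promoters were matched by symbol for 23 of the 29 members, 27 promoters in all, and Tnfrsf22 and Tnfrsf26 were not among them. The response element core was searched on both strands and stood in 4 of the 27, those of Tnfrsf14, Tnfrsf17, Tnfrsf1b and Tnfsf13b, and in 3.44% of all 32851 promoters of this length. An NF-kappaB site, which is GGG, any 2 bases and TTTCC, stood in the promoters of Tnfrsf25 and Tnfrsf9 and in 1.63% of all promoters. A site of PU.1, a myeloid and B cell transcription factor, GAGGAAGT, stood in that of Tnfsf18 (3.20% of all), and a GATA site, AGATAA, in that of Tnfsf13b (11.2% of all). These matches describe the letters only.

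At 10 weeks no TNF superfamily member passed the test between the genotypes. The largest ligand difference was that of Tnfsf10, which encodes TRAIL, a ligand that can trigger cell death, and it lay higher on the ACKR2-/- arrays. Tnfrsf22 and Tnfrsf23, decoy receptors for TRAIL in the mouse, their neighbour Tnfrsf26, and both TNF receptors, Tnfrsf1a and Tnfrsf1b, had lower means on the ACKR2-/- arrays. With limma on all 12 arrays and Benjamini-Hochberg adjustment over all genes, 0 of 29 members and 0 of 19938 genes (0% of all) had an adjusted p under 0.05. At an unadjusted p under 0.05 there were 6 members and 7.85% of all genes. The median log2 difference of the members was -0.18, against 0.01 for all genes, and 15 of the 20 receptors lay below 0, with a median of -0.29, while the median of the 9 ligands was 0.05.

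Tnfsf10 read 10.31, 10.70 and 10.34 on the ACKR2-/- 10-week arrays, against 9.57, 8.92 and 9.73 on the wild type 10-week arrays. All ACKR2-/- arrays lay above all wild type arrays, and array 2 of the wild type was the lowest. The means were 10.45 ± 0.22 for ACKR2-/- and 9.41 ± 0.43 for wild type (SD, n = 3 each), and the log2 difference was 1.04 ± 0.31 (limma standard error, adjusted p = 0.503). With the 8 arrays high in mast cell transcripts the difference was 1.04 ± 0.21 (limma adjusted p = 0.236, the lowest of any member). In that fit 0 members passed, and 7 had an unadjusted p under 0.05, against 12.9% of all genes.

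The TRAIL decoy receptors were split within the ACKR2-/- group. Tnfrsf22 read 8.22, 7.10 and 7.03 on the ACKR2-/- 10-week arrays, against 8.80, 8.88 and 8.05 on the wild type 10-week arrays. Tnfrsf23 read 7.99, 6.87 and 6.61 on the ACKR2-/- arrays, against 8.22, 8.49 and 7.83 on the wild type arrays. Array 1 of ACKR2-/- was within the wild type range for both genes, and arrays 2 and 3 were below it. The differences were -1.12 ± 0.44 for Tnfrsf22 and -1.03 ± 0.39 for Tnfrsf23 (limma adjusted p = 0.578 and 0.563). Tnfrsf10b, the mouse death receptor for TRAIL, had a mean of 8.24 ± 0.14 in ACKR2-/- and 8.70 ± 0.77 in wild type, with overlapping arrays. Tnfrsf11b, osteoprotegerin, a soluble decoy for RANKL that also binds TRAIL, read 6.84 to 7.58 on the ACKR2-/- arrays and 6.77 to 7.16 on the wild type arrays, which overlapped too. Tnfrsf22 and Tnfrsf23 are closely related paralogues that can share probe signal, so their values may not be separate measurements.

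Tnfrsf26, an orphan receptor of the mouse, lies next to Tnfrsf22 and then Tnfrsf23 on chromosome 7 in RefSeq GRCm38.p6, with no other protein-coding gene between neighbours. Its arrays read 9.19, 6.76 and 6.61 for ACKR2-/-, against 9.07, 9.48 and 8.88 for wild type, the widest split within the ACKR2-/- 10-week group of any member. Tnfrsf1a, the death domain receptor of TNF, read 8.43, 7.19 and 7.36 on the ACKR2-/- arrays, against 8.64, 9.95 and 8.71 on the wild type arrays. Here all ACKR2-/- arrays lay below all wild type arrays, with array 1 of ACKR2-/- nearest to them. Tnfrsf1b, the TNF receptor that binds TRAF2 and has no death domain, read 10.05, 9.38 and 8.40 on the ACKR2-/- arrays, against 9.97, 11.02 and 10.26 on the wild type arrays, with array 1 of ACKR2-/- inside the wild type range. These 3 genes are given in full because their unadjusted p was under 0.05, a choice made after their values were seen. Their differences were -1.62 ± 0.65 for Tnfrsf26, -1.44 ± 0.63 for Tnfrsf1a and -1.14 ± 0.45 for Tnfrsf1b (limma adjusted p = 0.582, 0.618 and 0.581).

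**Figure D1:**
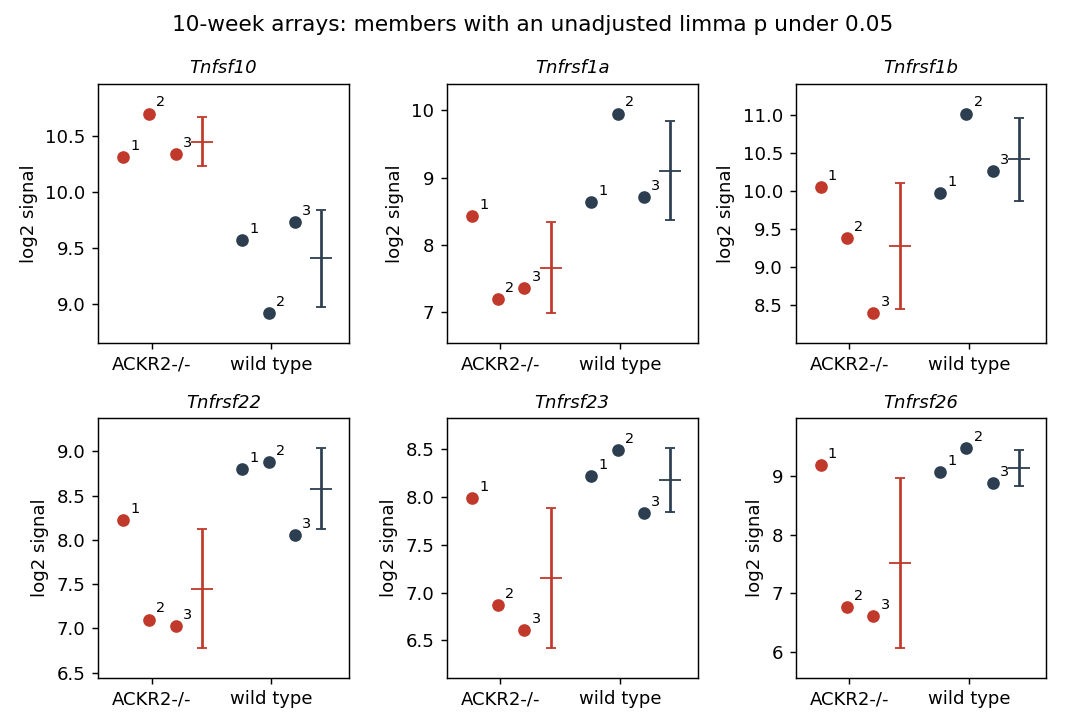
Log2 signal of the 6 members with an unadjusted limma p under 0.05 between the genotypes at 10 weeks, 1 panel per gene with its own vertical scale. Points are arrays, numbered by replicate, ACKR2-/- left and wild type right, and bars show the mean and SD of 3 arrays. For Tnfrsf22, Tnfrsf23 and Tnfrsf26, array 1 of ACKR2-/- stands at the wild type level and arrays 2 and 3 stand below it.

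As a mean, monocyte and macrophage markers were low on the same ACKR2-/- arrays as these receptors. The mean of 11 monocyte and macrophage markers was 9.31, 7.06 and 7.38 on the ACKR2-/- 10-week arrays, against 8.81, 10.26 and 9.48 on the wild type 10-week arrays. By this mean ACKR2-/- array 1 was in the wild type range, as it was for Tnfrsf1b, Tnfrsf22, Tnfrsf23 and Tnfrsf26 but not for Tnfrsf1a, and arrays 2 and 3 were low. Single markers departed from the mean. Ms4a6c (8.16) and Ly86 (6.19) lay below all wild type arrays on array 1 too. Fcgr1 read 7.04, 7.27 and 7.10 in ACKR2-/-, against 6.70, 8.37 and 7.26 in wild type. Ccr2 read 13.22, 6.11 and 11.31, against 10.35, 12.81 and 11.36, so neither lay below the wild type range on both arrays 2 and 3. All 11 markers had a difference below 0, with a median of -1.29, and 0 passed the test: Ms4a6c differed by -3.39 ± 0.88 and Adgre1, which encodes F4/80, by -2.40 ± 0.75. All 10 neutrophil markers lay below 0 as well, with a median of -2.38 and 0 called, and their means were 7.29, 6.79 and 6.69 in ACKR2-/-, against 8.96, 9.83 and 7.57 in wild type. Cebpe, a granulocyte transcription factor, differed by -0.62 ± 0.15 and Lcn2, a granule protein, by -2.93 ± 0.81. Medians of the other marker lists were 0.21 for mast cells, -0.09 for B cells, -0.12 for T and NK cells and -0.23 for dendritic cells, with 0 called in each. Of the 11 mast cell markers 8 lay above 0 and 3 below. For 6 of them all ACKR2-/- arrays lay above all wild type arrays, against 8.61% of all genes. Single genes of the mast cell and dendritic cell lists were low on ACKR2-/- arrays 2 and 3 and not on array 1. Hdc, the histamine-forming enzyme of mast cells, read 11.78, 10.30 and 9.23 in ACKR2-/-, against 12.07, 11.86 and 11.73 in wild type, and Tpsb2, a mast cell tryptase, 12.29, 11.06 and 10.93 in ACKR2-/-, against 12.19, 12.02 and 12.04 in wild type. Itgax, the integrin chain CD11c, read 8.41, 6.69 and 6.62 in ACKR2-/-, against 8.46, 8.98 and 7.87 in wild type. These 3 genes were chosen after their values were seen, and the array split was thus not confined to macrophage markers. The neutrophil marker mean was instead below all wild type arrays on all 3 ACKR2-/- arrays, array 1 included. The part of macrophages or neutrophils in the receptor differences was not tested, and in bulk RNA fewer cells of a type and less RNA per cell cannot be told apart.

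**Figure D2:**
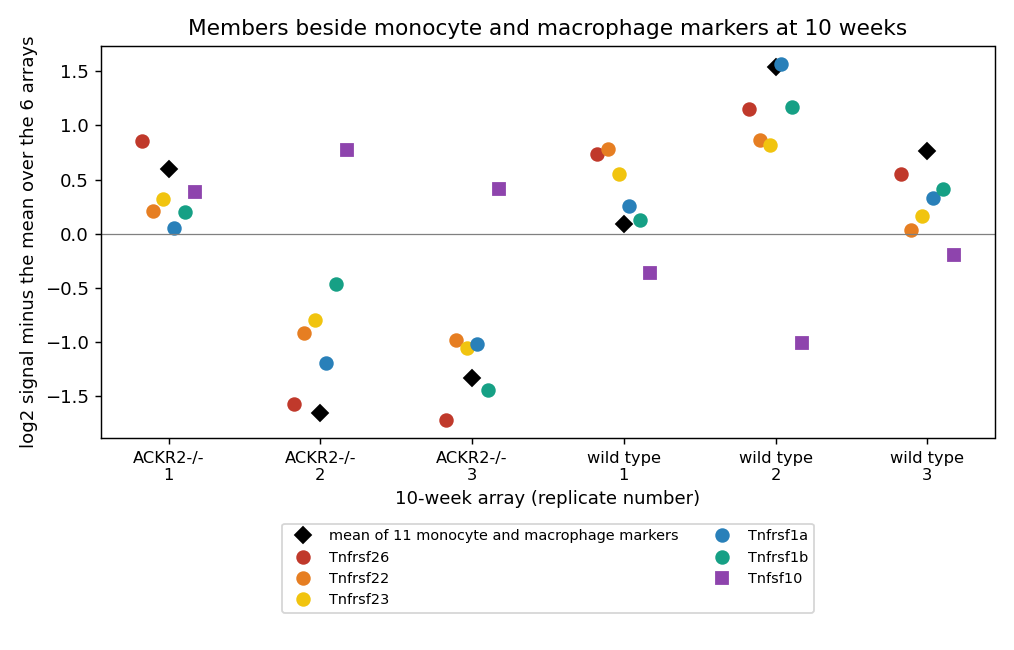
Log2 signal of 6 members and the mean of 11 monocyte and macrophage markers (black diamonds) on each 10-week array, each minus its own mean over the 6 arrays, with ACKR2-/- arrays left and wild type arrays right. The receptors and the marker mean are below their own means on ACKR2-/- arrays 2 and 3 and not on array 1. For Tnfrsf1a, however, array 1 of ACKR2-/- also lies below all wild type arrays. Tnfsf10 (squares) is above its mean on all 3 ACKR2-/- arrays.

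Leaving out ACKR2-/- 10-week array 1 changed the calls among the 8 mast cell arrays. Then 4 members passed, against 3.59% of all genes: Tnfsf10 was higher by 1.11 ± 0.24 (limma adjusted p = 0.0495), and Tnfrsf22, Tnfrsf23 and Tnfrsf26 differed by -1.51 ± 0.24, -1.44 ± 0.21 and -2.46 ± 0.22 (limma adjusted p = 0.014, 0.00895 and 0.00118). Each array was left out in turn, and array 1 is singled out here after its values were seen. For these receptors it stood at the wild type level, so leaving it out widens their differences. It also narrows their standard errors, for Tnfrsf26 from 0.61 with the 8 arrays to 0.22. The calls are therefore no separate support for the differences. In the 12-array fit without that array 0 members passed, and the lowest limma adjusted p of a member was 0.0521. Across all genes, ACKR2-/- 10-week array 1 correlated with its own group at 0.974 and 0.975, against 0.979, 0.985 and 0.989 with wild type 10-week arrays 1, 2 and 3. Its highest correlation was 0.991, with wild type 2-week array 2. The other ACKR2-/- 10-week arrays, 2 and 3, correlated at 0.994 with each other.

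Beside Tnfsf10 and Tnfrsf1a, the genotypes did not overlap at 10 weeks for Tnfrsf13b, which encodes TACI, a BAFF receptor of B cells, and for Tnfrsf11a, which encodes RANK, the receptor of RANKL. Tnfrsf13b read 9.78, 9.75 and 9.71 on the ACKR2-/- arrays, against 9.46, 9.53 and 9.60 on the wild type arrays, and Tnfrsf11a 7.36, 7.02 and 7.31 in ACKR2-/-, against 7.52, 7.53 and 7.55 in wild type. In total 2 members lay wholly above and 2 wholly below the wild type arrays, where 8.61% and 5.98% of all genes did. The differences were 0.22 ± 0.41 for Tnfrsf13b and -0.30 ± 0.25 for Tnfrsf11a (limma adjusted p = 0.985 and 0.862).

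Between 10 and 2 weeks in ACKR2-/- cells, 8 members passed the test: 3 ligands were higher and 5 receptors lower at 10 weeks. This is 8 of 29, against 16.8% of all genes, with 3 higher (10.5% of all genes) and 5 lower (6.33% of all genes). The higher ligands were Tnfsf9, Tnfsf10 and Tnfsf14, and the lower receptors were Tnfrsf13c, Tnfrsf14, Tnfrsf1a, Tnfrsf22 and Tnfrsf26. The median log2 difference was 0.57 for the 9 ligands and -0.63 for the 20 receptors, against 0.06 for all genes. On the same arrays, 10 of 11 mast cell markers were higher and 9 of 9 B cell markers lower at 10 weeks, with medians of 5.40 and -3.97, and 2 of 11 T and NK cell markers (median -3.68), 6 of 11 monocyte and macrophage markers (-2.47) and 6 of 8 dendritic cell markers (-2.87) were lower. Cell content, sex as read by Xist and Kdm5d, and culture time cannot be told apart in this comparison.

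Tnfsf9, the ligand of the T cell costimulator CD137, read 8.33, 8.32 and 8.62 on the ACKR2-/- 10-week arrays, against 7.46, 7.45 and 7.30 on the ACKR2-/- 2-week arrays. The groups were far apart beside their spread, and the difference was 1.02 ± 0.21 (limma adjusted p = 0.0143). Tnfsf14, which encodes LIGHT, read 9.51, 9.19 and 9.33 at 10 weeks, against 8.31, 8.45 and 7.42 at 2 weeks, a difference of 1.28 ± 0.33 (limma adjusted p = 0.0262). In RefSeq GRCm38.p6 these genes lie near each other on chromosome 17, with Cd70, a further ligand of the family, as the only protein-coding gene between them. Tnfsf10 read 10.31, 10.70 and 10.34 at 10 weeks, against 9.37, 9.47 and 8.21 at 2 weeks, a difference of 1.43 ± 0.31 (limma adjusted p = 0.0156). For Tnfsf14 and Tnfsf10 the 2-week groups were spread by 1 low array, array 3, but all 10-week arrays lay above all 2-week arrays.

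Of the receptors, Tnfrsf13c, the BAFF receptor of B cells, had the largest difference, -2.82 ± 0.67 (limma adjusted p = 0.0194). It read 8.13, 8.02 and 8.01 on the ACKR2-/- 10-week arrays, against 10.00, 9.95 and 12.68 on the ACKR2-/- 2-week arrays. Array 3 of the 2-week group, which had the highest B cell marker mean, was also the highest for this gene. Tnfrsf14, the receptor of LIGHT, also called HVEM, read 9.78, 9.36 and 9.07 at 10 weeks, against 10.92, 10.93 and 10.30 at 2 weeks, a difference of -1.31 ± 0.38 (limma adjusted p = 0.0412). Tnfrsf1a read 8.43, 7.19 and 7.36 at 10 weeks, against 10.35, 10.30 and 8.63 at 2 weeks, a difference of -2.10 ± 0.63 (limma adjusted p = 0.046). For both the groups did not overlap, and for Tnfrsf1a array 1 at 10 weeks and array 3 at 2 weeks were the nearest to each other.

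Tnfrsf22 read 8.22, 7.10 and 7.03 on the ACKR2-/- 10-week arrays, against 9.75, 9.77 and 8.99 on the ACKR2-/- 2-week arrays, a difference of -2.05 ± 0.44 (limma adjusted p = 0.0147). Tnfrsf26 read 9.19, 6.76 and 6.61 at 10 weeks, against 10.40, 10.33 and 9.25 at 2 weeks, a difference of -2.47 ± 0.65 (limma adjusted p = 0.0278). Both groups were separate for each gene, with 10-week array 1 nearest to the 2-week arrays. Tnfrsf23, the adjacent gene, read 7.99, 6.87 and 6.61 at 10 weeks, against 7.95, 7.82 and 7.18 at 2 weeks, and its arrays overlapped.

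Tnfrsf4, Tnfrsf25 and Tnfrsf9, receptors of T cell costimulation, differed among the ACKR2-/- 2-week arrays, while Tnfrsf8, which encodes CD30 and has such a role too, read 7.71, 7.59 and 7.67 there. Tnfrsf4, which encodes OX40, had a mean of 8.38 ± 0.05 at 10 weeks and 9.94 ± 1.12 at 2 weeks, where it read 10.70, 10.47 and 8.65. Tnfrsf25, which encodes DR3, had a mean of 7.74 ± 0.09 at 10 weeks and 9.34 ± 1.32 at 2 weeks, and Tnfrsf9, which encodes CD137, 7.78 ± 0.22 at 10 weeks and 8.88 ± 0.74 at 2 weeks (SD, n = 3 each). On array 3 of the 2-week group, whose T and NK cell mean was the lowest of the 4 unlike arrays, all of these were lower than on arrays 1 and 2. The differences of Tnfrsf4, Tnfrsf25 and Tnfrsf9 of -1.56 ± 0.70, -1.60 ± 0.68 and -1.09 ± 0.39 did not pass the test (limma adjusted p = 0.161, 0.14 and 0.0854). They are given for the role of these receptors and not by rank. Tnfrsf11a and Tnfrsf17, which did not pass either, had lower p-values, with differences of -0.76 ± 0.25 and -0.45 ± 0.16 (limma adjusted p = 0.0642 and 0.0789). Tnfrsf18 differed by -0.38 ± 0.37 (limma adjusted p = 0.558). Cd27, a T cell receptor of the family, read 7.29, 6.88 and 7.05 at 10 weeks, against 12.17, 12.16 and 8.35 at 2 weeks, with the same low array 3.

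At an unadjusted p under 0.05 there were 14 members and 30.2% of all genes between the times in ACKR2-/- cells. The 10-week arrays lay wholly above the 2-week arrays for 4 members (26.7% of all genes) and wholly below them for 11 (17.7%). The 8 calls depended on which arrays were used: without ACKR2-/- 10-week array 2 or 3 no member passed and no gene passed, and without wild type 2-week array 3, which only enters the spread, 14 members passed (25% of all genes).

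**Figure D3:**
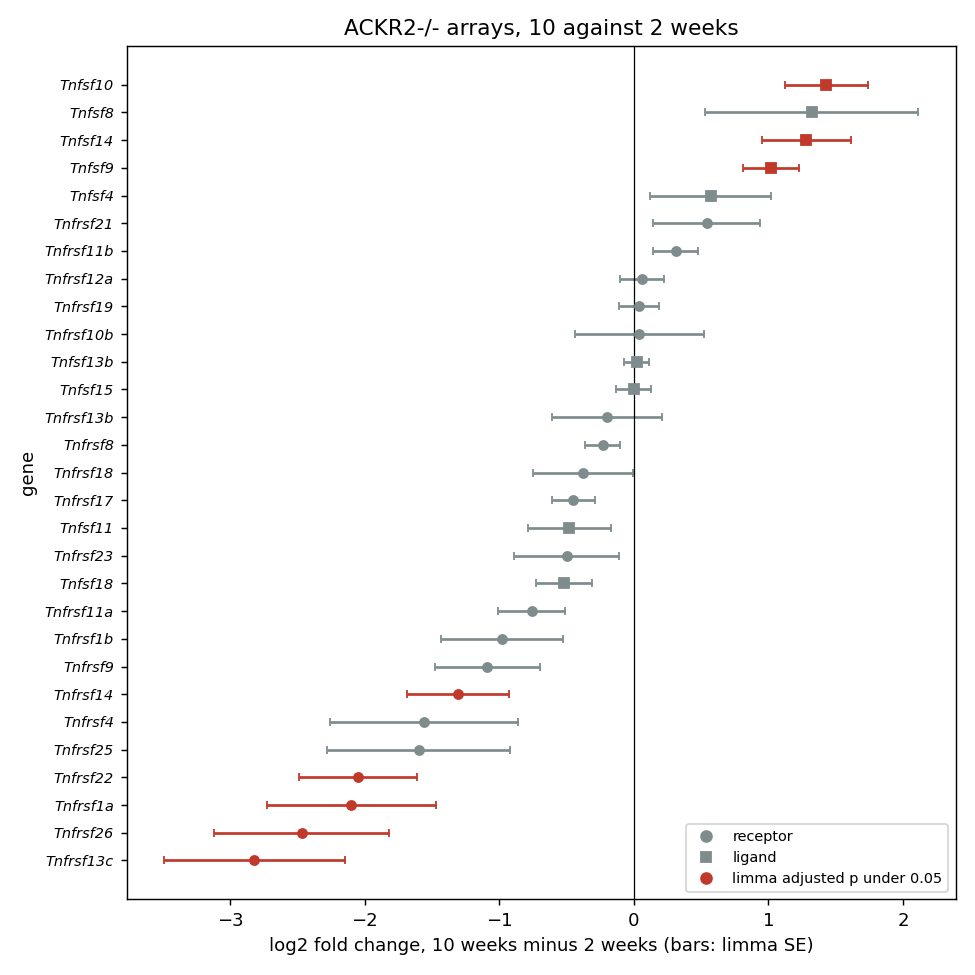
Log2 fold change of the 29 members between 10 and 2 weeks in ACKR2-/- cells, 10 minus 2 weeks, from the fit to 12 arrays, with bars for the limma standard error. Squares are ligands, circles are receptors, and red marks a limma adjusted p under 0.05. The red points are 3 ligands above 0 and 5 receptors below 0.

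**Figure D4:**
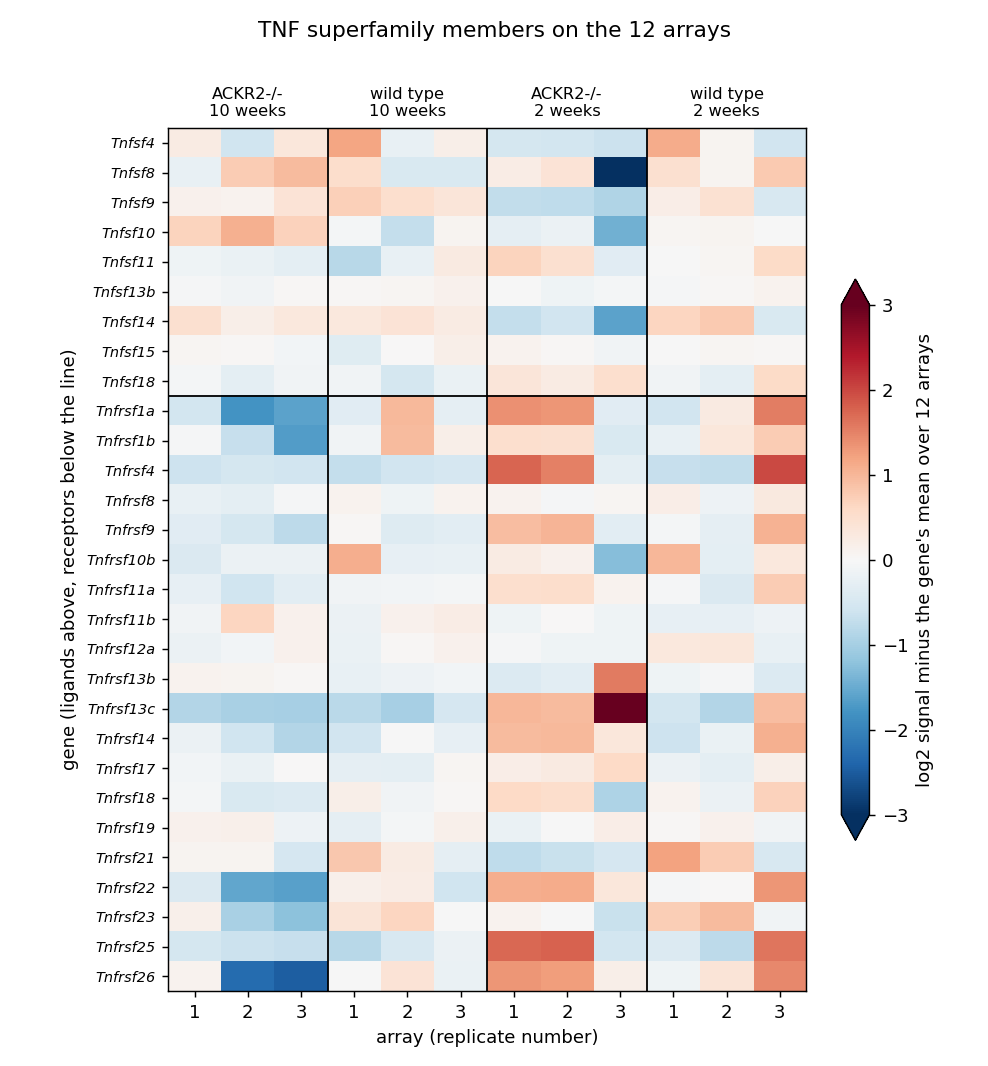
Log2 signal of the 29 members on the 12 arrays, each gene shown as the difference from its own mean over the 12 arrays, ligands and receptors in separate blocks and arrays in 4 groups with ACKR2-/- left of wild type. The ACKR2-/- 2-week arrays and wild type 2-week array 3 share values above the gene's mean for Tnfrsf13c, Tnfrsf14, Tnfrsf17 and Tnfrsf22.

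At 2 weeks 0 of 29 members passed between the genotypes (0% of all genes), and wild type array 3 had the levels of the ACKR2-/- arrays for many of them. At an unadjusted p under 0.05 there were 5 members and 17.5% of all genes. Tnfsf9 read 7.46, 7.45 and 7.30 on the ACKR2-/- 2-week arrays, against 8.40, 8.67 and 7.73 on the wild type 2-week arrays, and its difference was -0.86 ± 0.21 (limma adjusted p = 0.225). Tnfsf14 read 8.31, 8.45 and 7.42 on the ACKR2-/- arrays, against 9.66, 9.81 and 8.56 on the wild type arrays, a difference of -1.28 ± 0.33, and Tnfrsf13c 10.00, 9.95 and 12.68, against 8.45, 8.13 and 9.93, a difference of 2.04 ± 0.67 (limma adjusted p = 0.225 for both). Array 3 of the wild type was the nearest of its group to the ACKR2-/- arrays for all of these. Members that lay wholly above the wild type numbered 3 (Tnfrsf11b, Tnfrsf13c and Tnfrsf17), against 4.97% of all genes, and wholly below 4 (Tnfrsf21, Tnfsf9, Tnfsf10 and Tnfsf14), against 8.6%. Without wild type 2-week array 3, 10 members passed, 6 higher and 4 lower, against 23.8% of all genes, and the 2 wild type arrays then left were high in mast cell transcripts while all 3 ACKR2-/- 2-week arrays were low.

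Between 10 and 2 weeks in wild type cells 0 of 29 members passed (0% of all genes), with all 12 arrays and with the 8 mast cell arrays. At an unadjusted p under 0.05 there was 1 member and 6.65% of all genes in the first fit, and 2 members and 7.14% in the second. With 12 arrays the lowest p-values were those of Tnfsf9, Tnfsf18, which encodes the ligand of GITR, and Tnfsf11, which encodes RANKL, with differences of 0.47 ± 0.21, -0.36 ± 0.21 and -0.48 ± 0.31 (limma adjusted p = 0.749, 0.784 and 0.784). With the 8 arrays, Tnfsf14 differed by -0.39 ± 0.13 and Tnfrsf12a, the receptor of TWEAK, by -0.34 ± 0.14 (limma adjusted p = 0.604 and 0.681). No member had groups without overlap in the 12 arrays, where 5.29% of all genes were wholly above and 3.45% wholly below. In the 8 arrays 1 member was wholly above and 3 wholly below, against 10.2% and 9.74% of all genes.

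The genotype by week interaction, the difference between genotypes at 10 weeks minus that at 2 weeks, passed for 0 of 29 members (0% of all genes). At an unadjusted p under 0.05 there were 4 members and 11.4% of all genes. The lowest p-values were those of Tnfsf10, 1.72 ± 0.44, Tnfsf14, 1.28 ± 0.47, and Tnfrsf22, -1.53 ± 0.62, all with a limma adjusted p of 0.424. Without wild type 2-week array 3, 6 members passed, against 15.7% of all genes, and these were Tnfsf9, Tnfsf10 and Tnfsf14 above 0, and Tnfrsf11a, Tnfrsf14 and Tnfrsf22 below 0.

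Ligands and their receptors were set side by side for 15 pairs in which both belong to the 29 members. Between 10 and 2 weeks in ACKR2-/- cells both sides passed in 2 pairs, Tnfsf10 with Tnfrsf22 and Tnfsf14 with Tnfrsf14, and in both the ligand was higher and the receptor lower. The ligand alone passed in 4 pairs, Tnfsf9 with Tnfrsf9 and Tnfsf10 with Tnfrsf10b, Tnfrsf23 and Tnfrsf11b. The receptor alone passed in 1, Tnfsf13b, which encodes BAFF, with Tnfrsf13c, and neither in 8. The same Tnfsf10 values thus enter several pairs, so the pairs are not separate observations. Of all genes 10.5% were higher and 6.33% lower in this comparison, where cell content and sex transcripts also differed, and a link between ligand and receptor was not tested. Among pairs whose ligand has another symbol, both sides also passed for Lta with Tnfrsf1a (-1.27 and -2.10) and Lta with Tnfrsf14 (-1.27 and -1.31), where ligand and receptor were both lower. Tnfsf13b itself had the narrowest range of any member, 7.27 to 7.52 over the 12 arrays. Between the genotypes at 10 weeks no side of any pair passed.

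Other family genes and the pathway inside the cell were taken from fixed lists. In the comparison of 10 with 2 weeks in ACKR2-/- cells, 10.5% of all genes were higher and 6.33% lower, and cell content differed as described above. Of 15 family genes with other symbols, 4 were lower at 10 weeks (median -0.88): Ltb, lymphotoxin beta, by -4.64 ± 1.02, Cd40, a B cell and antigen-presenting cell receptor, by -2.01 ± 0.53, Fas by -1.72 ± 0.53 and Lta, lymphotoxin alpha, by -1.27 ± 0.33. Between the genotypes at 10 weeks 0 of the 15 passed, with a median of -0.15, and those with the lowest p were Ltbr, the lymphotoxin beta receptor, at -0.63 ± 0.23 and Fas at -0.99 ± 0.53. Tnf, the ligand of Tnfrsf1a and Tnfrsf1b, read 7.92, 8.96 and 9.38 on the ACKR2-/- 10-week arrays, against 10.28, 9.42 and 8.37 on the wild type 10-week arrays, and the groups overlapped.

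Of 24 adaptors and regulators next to the receptors, 2 were higher (10.5% of all genes) and 5 lower (6.33% of all genes) at 10 than at 2 weeks in ACKR2-/- cells (median -0.18), where the cell content of the arrays differed. These included Traf1, Traf4 and Traf5, TRAF family proteins, at -2.22 ± 0.55, -1.78 ± 0.28 and -1.32 ± 0.29, and Mlkl, the effector of necroptosis, at 2.11 ± 0.53. Of 11 genes of NF-kappaB and its kinases, 6 were lower, against 6.33% of all genes (median -1.04), among them Bcl3 at -2.16 ± 0.49, Nfkbia, an inhibitor of NF-kappaB that is also its target, at -1.91 ± 0.43, Relb at -1.54 ± 0.32 and Map3k14, the kinase NIK, at -1.19 ± 0.30. Of 5 proteases that process ligands, 2 were higher, against 10.5% of all genes (median 0.37), Furin at 2.95 ± 0.70 and Sppl2b at 0.37 ± 0.10. Between the genotypes at 10 weeks none of these genes passed, with medians of 0.08, -0.05 and -0.01. Those with the lowest p were Rbck1 and Casp8, at 0.31 ± 0.11 and 0.37 ± 0.14, Ikbkg and Nfkbia, at 0.15 ± 0.10 and -0.54 ± 0.43, and Sppl2a and Adam17, at 0.20 ± 0.09 and -0.15 ± 0.20.

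Tnfrsf21, a death domain receptor also called DR6, had means of 10.61 ± 0.33 in ACKR2-/- and 10.98 ± 0.55 in wild type at 10 weeks, and 10.07 ± 0.13 in ACKR2-/- and 11.22 ± 0.87 in wild type at 2 weeks (SD, n = 3 each). It read 9.95 to 10.25 on the 4 arrays low in mast cell transcripts and 10.22 to 11.93 on the other 8. Its difference between the genotypes at 2 weeks was -1.15 ± 0.40 (limma adjusted p = 0.225), and without wild type 2-week array 3 it was -1.63 ± 0.29 (limma adjusted p = 0.00242). Tnfrsf18, which encodes GITR, ranged from 9.25 to 10.87 over the arrays, with its lowest value on ACKR2-/- 2-week array 3. On that array Tnfsf8, the ligand of CD30, read 6.06, while it lay between 8.73 and 10.12 on the 8 mast cell arrays, and Tnfrsf13b read 11.23, against 9.46 to 9.78 on those 8. Tnfrsf17, which encodes the BAFF receptor BCMA of plasma cells, ranged from 6.71 to 7.61, highest on the same array. Tnfsf4, the ligand of OX40, ranged from 6.27 to 8.08 and Tnfsf11 from 8.31 to 9.81. After Tnfsf13b the narrowest members were Tnfrsf19 (7.30 to 7.77), Tnfsf15 (6.84 to 7.38), Tnfrsf12a (8.57 to 9.13) and Tnfrsf8 (7.33 to 7.90). The median range of a member was 1.94 over the 12 arrays and 0.66 over the 8 mast cell arrays, against 0.75 and 0.56 for all genes.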

How the data were processed

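The authors deposited log2 values of 35399 probe sets, which the submitters' processing notes credit to RMA and Partek 6.5. This method subtracts background, gives all arrays 1 distribution and combines a set's probes. It leaves no detection call, and the genome build is not given in the sources used here. Values ran from 2.66 to 14.91 and array medians from 7.76 to 7.90. The number of arrays limits the precision. Of the probe sets, 21789 had 1 symbol, 1621 several and 11989 none, and the probe set with the highest mean was kept per gene, with no filter on low values.

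With limma 3.58.1 (R 4.3.3), 1 mean per group was estimated from the 12 arrays together (8 residual and 2.39 prior degrees of freedom), with Benjamini-Hochberg adjustment over 19938 genes and calls at an adjusted p under 0.05. Errors of differences are limma standard errors, and those of means are SD. The procedure was tested on simulated data. The arrays are labelled biological replicates with no animal or culture named, so p-values measure the spread between these samples, which may be technical. Same-numbered wild type arrays at 10 and 2 weeks deviated together (correlations 0.359, 0.203 and 0.166). No other group pair did so for all numbers, so the numbers were taken as pairing only there. For number 3 this is doubtful: Xist read 13.11 at 10 weeks and 5.77 at 2 weeks, and Kdm5d 6.04 and 10.18. Alternatives were other sets of arrays, array weights, a replicate block, a dim filter at a mean of 6, centring, a trended variance and means over probe sets.

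The members, gene lists and tests were chosen with earlier results of these data known. Values of every array are given for members called in a comparison and for the 3 with the lowest p between genotypes at 10 weeks. Fold changes are given for called members or, where none was called, the 3 with the lowest p, and exceptions are named.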

Additional observations from a re-analysis of the deposited data

Results flagged for a closer look

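Tnfsf10 was picked out because its genotype difference pointed opposite ways at the times: all ACKR2-/- arrays lay above all wild type arrays at 10 weeks and below all of them at 2 weeks. The interaction was 1.72 ± 0.44 (SE) on the log2 scale and did not pass (limma adjusted p = 0.424). The 2-week ACKR2-/- arrays, which read 9.37, 9.47 and 8.21 against 9.71, 9.73 and 9.62 in wild type, were low in mast cell transcripts, and the part of cell content in the difference was not tested.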

How the results depend on the processing

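The counts of members that passed depended on which arrays entered the fit. Between the genotypes at 10 weeks the count was 0, leaving out 1 array gave 0 to 4, and array weights gave 7 (5350 of 19938 genes). Between the genotypes at 2 weeks it was 0, leaving out 1 array gave 0 to 10, and array weights gave 17 (8366 of 19938 genes). Between 10 and 2 weeks in ACKR2-/- cells it was 8, leaving out 1 array gave 0 to 14, with 3 members (1514 genes) without ACKR2-/- 2-week array 1 and 4 members (1391 genes) without array 2, and array weights gave 20 (8914 genes). For the interaction it was 0, leaving out 1 array gave 0 to 6, and array weights gave 15 (7330 genes). The weights were 0.22, 4.18 and 0.53 for wild type 10-week arrays 1, 2 and 3, so array 2 dominated that group. Array 3 had a weight of 0.12 in the wild type 2-week group and 0.34 in the ACKR2-/- 2-week group. The counts under array weights therefore rest on few arrays per group. Between 10 and 2 weeks in wild type it was 0 in every alternative. The replicate block gave 7 in place of 8 members between the times in ACKR2-/- cells and 0 in the other comparisons. With the wild type arrays alone, where the numbers were taken as pairing, the lowest limma adjusted p was 0.934. Of the differences of named members, only that of Tnfsf18 between the times in wild type turned its direction, with a range of -0.53 to 0.03 over the alternatives and 0.03 without wild type 10-week array 2 among the 8 mast cell arrays. The cause of these shifts was not tested. RMA values carry no detection call, so signal over background could not be examined, and no slide or scan batch is recorded in the sources used here.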

Other observations

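Wild type array 1 stood apart for Tnfrsf10b, the TRAIL death receptor, at both times: it read 9.59 at 10 weeks and 9.50 at 2 weeks, while no other array exceeded 8.82. Tnfsf4, the ligand of OX40, was also highest on these arrays, at 8.08 and 8.01, with no other array above 7.25. Eda2r, a family receptor with another symbol, read 8.89 and 8.80 there and at most 8.11 elsewhere. The labels give no difference between array 1 and the others of its groups.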
